A study of Homo sapiens with 8 samples.

Results

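The HOX, SOX, FOX and GATA genes, with the TBX, ZFHX, RFX, IRX and CDX genes and the homeobox family of SIX3 and SIX4, encode transcription factors that set cell and tissue identity. They were taken by a rule on gene symbols from a list of m6A peaks in HCT116 cells, a human colorectal cancer line. The rule uses no measured value but was written with earlier results of these data known, and FOXO1, FOXO3 and FOXO4 were left out. Their symbols stood on 138 of 22626 peaks and on 62 of 12009 genes. Of 144 annotated genes whose symbols match, 82 had no peak in the list analysed here. The compared cells were HCT116 cells with a stable hairpin against ALKBH5 (shALKBH5, titled AL1) and HCT116 cells with a non-targeting hairpin (shNC). Each arm had 2 libraries of RNA fragments pulled down with an antibody against m6A (the IP) and 2 libraries of unselected fragments (the input), so 8 libraries in 4 groups. All were made from poly(A)-selected RNA.

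The only values analysed were those of the authors' deposited table, which gives 1 value per peak and none per library. Replicate error therefore cannot be given for any value below, and library depth is unknown. For each peak the table gives an enrichment of IP over input, the log10 p of the peak, and a log2 fold between the arms, which has a p and a false discovery rate (FDR) of its own. The table does not say which arm is on top of that fold. Folds are therefore given only by their sign and size, and no direction of m6A is read from them. A peak is called here when its FDR is at most 0.05. More m6A on each transcript and more transcript cannot be told apart from this table. With 1 hairpin title, loss of ALKBH5 and other actions of the hairpin cannot be told apart. The ALKBH5 transcript itself had 3 peaks with log2 folds of -1.43, -0.93 and -1.25 per the authors' deposited table, none called, and these do not measure its level, so the knockdown was not checked. Of 10 markers of colorectal epithelium, 4 carried a peak (CDX2, EPCAM, KRT18 and KRT8), against 1 of 6 fibroblast markers (COL1A1), 1 of 5 leukocyte markers (CD68) and 0 of 4 endothelial markers.

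m6A is a methyl mark that METTL3 and its partner METTL14 place on adenosines of messenger RNA, often in a GGAC setting and often near the stop codon. ALKBH5 is an enzyme that removes it, and YTH-domain proteins bind it and alter the stability and translation of the transcript. HOX genes lie in clusters and pattern the body axis, with the order of genes along a cluster matching the order of their use. CDX2 and GATA6 hold intestinal and endodermal identity, SOX9 is active in intestinal crypts, and FOXA factors open chromatin in endoderm.

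Several microRNAs are encoded between the HOX genes that carried peaks, and their mature sequences are printed to place those peaks within the clusters. Bases 2 to 8, the seed, are in capitals. The sequences are from RefSeq, on GRCh38.p14.
miR-196b-5p: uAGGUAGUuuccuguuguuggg
miR-196a-5p: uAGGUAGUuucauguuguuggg
miR-10a-5p: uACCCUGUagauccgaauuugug
miR-196b-5p (chr7:27169528-27169549, minus strand) and miR-196a-5p (chr12:53991762-53991783, plus strand, and chr17:48632532-48632553, minus strand) share the seed AGGUAGU. Messages of several HOX genes are known targets of miR-196. The hairpin of miR-196b lay 169 bases from a HOXA9 peak, that of miR-10a (chr17:48579904-48579926, minus strand) 1488 bases from a HOXB4 peak, the HOXC copy of miR-196a 2268 bases from the HOXC10 peak, and the HOXB copy 6132 bases from a HOXB9 peak. None of these hairpins contained GGAC.

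In HOXA9, HOXA10 and SOX13 a peak covered the 50 bases that follow an annotated start site. Those 3 promoter windows are shown because a listed peak reaches them. They are not the only member genes with a peak at the start. Peaks of HOXB4, HOXB5 and HOXB9, for example, were centred 59, 90 and 119 bases from the annotated 5′ end and reach it, and no window is shown for them. Each runs from 250 bases before the start site to 50 after it, from RefSeq on GRCh38.p14, with the bases covered by the peak in capitals.
HOXA9 (chr7:27165488-27165787, minus strand): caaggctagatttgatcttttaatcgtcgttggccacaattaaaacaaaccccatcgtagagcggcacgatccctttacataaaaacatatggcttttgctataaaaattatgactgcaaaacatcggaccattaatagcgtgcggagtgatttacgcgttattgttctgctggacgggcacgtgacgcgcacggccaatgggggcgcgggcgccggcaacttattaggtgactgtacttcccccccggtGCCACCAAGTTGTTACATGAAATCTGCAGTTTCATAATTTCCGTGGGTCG
HOXA10 (chr7:27174271-27174570, minus strand): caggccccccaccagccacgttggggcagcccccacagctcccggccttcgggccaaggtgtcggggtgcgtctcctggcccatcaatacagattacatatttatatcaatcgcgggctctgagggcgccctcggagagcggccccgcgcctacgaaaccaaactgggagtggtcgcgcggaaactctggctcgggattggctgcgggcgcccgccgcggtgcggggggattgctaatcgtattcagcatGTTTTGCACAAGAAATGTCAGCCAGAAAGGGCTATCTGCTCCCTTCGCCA
SOX13 (chr1:204072865-204073164, plus strand): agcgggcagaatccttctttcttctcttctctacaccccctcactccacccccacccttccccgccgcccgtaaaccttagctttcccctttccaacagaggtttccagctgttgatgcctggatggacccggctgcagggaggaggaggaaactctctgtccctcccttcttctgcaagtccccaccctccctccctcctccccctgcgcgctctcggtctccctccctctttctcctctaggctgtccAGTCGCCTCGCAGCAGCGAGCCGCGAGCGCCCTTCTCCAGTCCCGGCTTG
The motif GGACT, searched on both strands, was absent from the HOXA9 and HOXA10 windows and occurred 2 times on the antisense strand of the SOX13 window. GGAC did not occur on the sense strand within the covered bases of any of the 3. Promoter windows were found for 34 of the 62 genes (57 windows), and 49.1% of them held GGACT on either strand, against 44.2% of 35116 windows of all genes. The SOX13 peak began at its start site with a log2 fold of 0.20, the HOXA9 peak that reaches its start site had 2.56 and the HOXA10 one 0.74 per the authors' deposited table, and none was called. Those HOXA9 and HOXA10 peaks also have a second block upstream of the start site, ending at chr7:27169311 and chr7:27179691. Their capital bases are therefore not the first bases of a transcript that spans both blocks.

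Of 39 annotated HOX genes, 21 carried peaks, 31 in all, and none of the 31 was called, against 8.23% of all 22626 peaks. Peaks lay on 8 of 11 HOXA genes, 8 of 10 HOXB genes, 4 of 9 HOXC genes and 1 of 9 HOXD genes. Their median enrichment per the authors' deposited table was 14.6, from 5.23 for HOXA9 to 47.3 for HOXB13, against a median of 10.1 over all peaks. The folds were negative for 18 and positive for 13, with a median log2 fold of -0.55 and a median of 0.14 over all peaks. At an unadjusted p of 0.05, 7 HOX peaks were past the threshold, all with a negative fold, while 7% of all peaks were past it on that side. These 7 include the overlapping HOXB3 and HOXB6 peaks and a HOXA9 peak that overlaps a peak of an unnamed gene, all described below.

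In the HOXA cluster, on chromosome 7, HOXA4 had a log2 fold of -0.04, HOXA5 of -2.17, HOXA7 of -1.48 and HOXA11 of -1.95 per the authors' deposited table, 1 peak each. HOXA9 and HOXA10, which act in blood precursors and in the developing uterus, each had 2 peaks, with log2 folds of -0.55 and 2.56 for HOXA9 and 0.53 and 0.74 for HOXA10 per the authors' deposited table. The HOXA9 peak at -0.55 shares 390 bases with a same-strand peak of an unnamed gene, and the HOXA10 peak at 0.74 shares 15 with it. The gene of each is therefore uncertain. HOXA13, a gene of the hindgut and the distal limb, had a peak with an enrichment of 42.2 and a log2 fold of -0.89 in that table, beside an overlapping pair with the same fold of 0.15. The cluster therefore held both signs, 5 positive and 7 negative, and 0 of its 12 peaks were called, against 8.23% of all peaks.

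The HOXB cluster, on chromosome 17, had 14 peaks, 9 negative and 5 positive. HOXB7 gave the smallest FDR among the strong negative HOX peaks apart from HOXB9, with a log2 fold of -1.74 (FDR 0.129) at an enrichment of 40.5 per the authors' deposited table. HOXB9 had 2 peaks of opposite sign there, 0.78 at a peak log10 p of -94.9 and -1.20 (FDR 0.127) at -25.8. HOXB13, the last gene of the cluster and known for its activity in prostate and distal colon, had a log2 fold of -1.19 at its enrichment of 47.3 per the authors' deposited table. The HOXB3 peak at -2.75 and the HOXB6 peak at -2.84 shared 420 bases, so the gene of each is uncertain. HOXB3 and HOXB6 each had a second peak, at log2 folds of -0.62 and 2.24 per the authors' deposited table. The remaining members of the cluster were HOXB4 with 2 peaks at 2.50 and 0.59, HOXB5 with 1 at -0.64, and HOXB8 with 3 between -0.99 and 0.14, of which a pair overlapped.

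HOXC peaks were on HOXC6, HOXC9, HOXC10 and HOXC13, with log2 folds of 0.36, 0.32, 0.51 and -3.07 per the authors' deposited table. HOXC13, a gene of hair and nail, thus had the most negative HOX fold, at an FDR of 0.229. HOXD8, the only HOXD gene with a peak, had the strongest peak of the family by its own p, a log10 p of -100, with a log2 fold of -0.49 and an enrichment of 31.6 in that table.

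**Figure D1:**
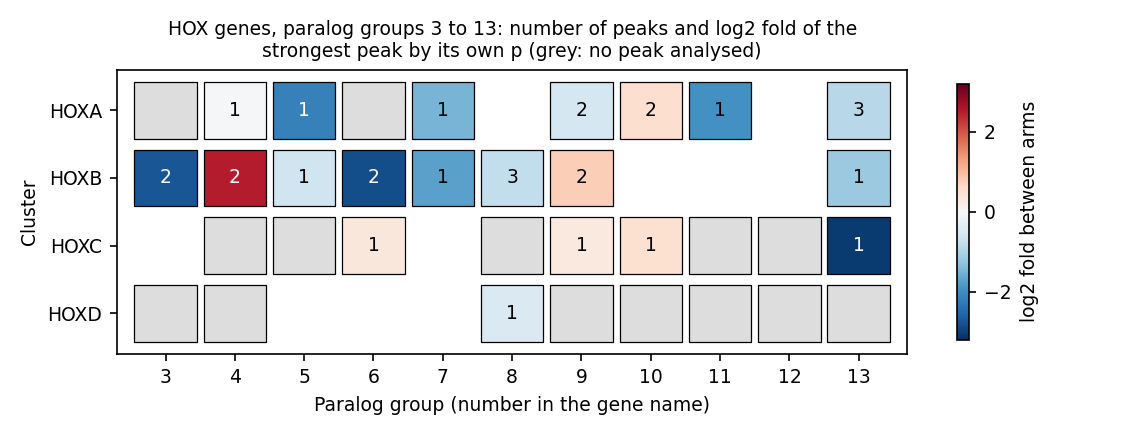
Each square is an annotated HOX gene of paralog groups 3 to 13, placed by cluster (rows) and paralog group (columns); the number is its count of peaks and the colour the deposited log2 fold between the arms of its strongest peak by the peak's own p. Grey squares had no peak analysed. Negative folds (blue) lie in the HOXA, HOXB, HOXC and HOXD rows, the most negative being HOXC13 at -3.07, not called. Positive folds (red) lie in the HOXA, HOXB and HOXC rows, with 3 of the 4 HOXC peaks positive, and HOXD has 1 peak.

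The sign of the HOX folds differed between strong and weak peaks. Among the 18 HOX peaks with a log10 p of at most -5, 15 (83.3%) had a negative fold, with a median log2 fold of -0.94 per the authors' deposited table. The 3 positive ones were HOXA10 at 0.53, HOXB9 at 0.78 and HOXC10 at 0.51. Of the 13 weaker HOX peaks, 3 (23.1%) had a negative fold. Over all peaks at that strength the negative share was 42.3%, or 49.3% after the median fold of all peaks was subtracted, and the HOX share was then still 83.3%. Keeping 1 peak per overlapping locus, that with the smallest p of the difference among all genes, left 13 of the 18, and 11 were negative. HOX peaks dropped out where a peak of another gene had the smaller p, among them the positive HOXA10 peak. This split was chosen after the values were seen and carries no test, neighbouring HOX genes share transcripts and reads, and none of these peaks was called.

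CDX2, the homeodomain factor that maintains intestinal identity, had 2 peaks with log2 folds of -0.83 (FDR 0.220) and -1.33 (FDR 0.123) per the authors' deposited table. Both were negative and 0 of the 2 were called, against 8.23% of all peaks. Among the Iroquois genes, which pattern heart and neural tissue, IRX3 had log2 folds of -0.77 and -0.08, IRX4 of -0.71 and -3.25, and IRX5 of 2.58 at an enrichment of 27 in that table. IRX4, at -3.25, and IRX5, at 2.58, thus had folds of opposite sign among 5 peaks, of which 0 were called, against 8.23% of all peaks.

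SIX3, a homeodomain factor of eye and forebrain, and SIX4, one of muscle, had 2 peaks each. SIX4 had the highest enrichment of all 138 peaks, 138-fold, at chr14:60713074-60720397 (minus strand, 2 blocks), with a log2 fold of 1.15 (FDR 0.0457) per the authors' deposited table, so it was called. That call was lost with p doubled (FDR 0.0897), after recentring, in which the median fold of all peaks was subtracted (FDR 0.0896), and at an FDR of 0.01. The other SIX4 peak had a log2 fold of 0.78, and SIX3 had -0.22 and 0.55, none of them called. The family had 1 call among 5 peaks, against 8.23% of all peaks. Both SIX4 folds were thus positive, while SIX3 had both signs.

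ZFHX3 and ZFHX4, which encode very large proteins with many zinc fingers and several homeodomains, carried the most peaks of any members, 11 and 13, and ZFHX2 carried 1. Of these 25 peaks 0 were called, against 8.23% of all peaks. Their log2 folds ran from -2.06 to 2.42 per the authors' deposited table, 15 negative, 9 positive and 1 at 0, and their peaks were weak, with a median log10 p of -4.16 against -8.20 over all peaks. The highest enrichment was 37.7, on ZFHX3, with a log2 fold of -2.06. The exact pair of p and enrichment was held by at least 5 peaks of the list for 19 of the 25, and by at least 2 for 23.

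SOX genes carry an HMG box that bends DNA. Of 19 annotated SOX genes 5 had peaks, and all 13 of their peaks had a log10 p of at most -5, against 67.9% of all peaks. Of the 13, 2 were called, 1 positive and 1 negative. Over all peaks 8.23% were called, 5.74% positive and 2.49% negative. SOX9, a factor of intestinal crypts and of cartilage, had 3 peaks. Its peak at chr17:72121437-72122809 (plus strand, 2 blocks, centred 655 bases from the annotated 5′ end) had a log2 fold of -1.13 (FDR 0.000955) at an enrichment of 2.39 per the authors' deposited table, and it was the only called member peak with a negative fold. The other SOX9 peaks had 0.65 at an enrichment of 2.29, and 0.03 at an enrichment of 27.5 with the strongest p of the member peaks, a log10 p of -771. The call thus lay on a weakly enriched region, while the strongly enriched one had a fold near 0. The peak nearest the gene's start, centred 105 bases from it, was the one at 0.65. It was about as weakly enriched, of opposite sign and not called (FDR 0.489).

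SOX4, a SoxC factor of progenitor cells, also had 3 peaks. Its peak at chr6:21595722-21597424 (plus strand) had a log2 fold of 0.61 (FDR 0.00055) at an enrichment of 19 per the authors' deposited table, the smallest FDR of any member. The peaks beside it had 0.42 (FDR 0.325) and -0.10 (FDR 0.653), at enrichments of 23.3 and 12.1. SOX12, another SoxC gene, had 4 peaks with log2 folds of -0.47, 0.55, -0.71 and 1.04 per the authors' deposited table, SOX13 had 0.20 and -0.83, and SOX8, a relative of SOX9, had -0.58. SOX12 thus carried positive and negative folds in turn along the gene.

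FOX genes encode forkhead, or winged-helix, factors, and 17 of 42 annotated members carried 39 peaks, 18 positive and 21 negative. Of the 39, 4 peaks were called, on FOXD1, FOXK1 and FOXK2, and all 4 had a positive fold, against 8.23% of all peaks called and 5.74% called with a positive fold. FOXK1 and FOXK2 are near relatives that repress starvation and autophagy genes. FOXK2 had 2 called peaks. That at chr17:82587087-82587387 had a log2 fold of 0.77 (FDR 0.0257) and that at chr17:82601276-82602505 had 0.45 (FDR 0.00646), at enrichments of 4.31 and 22.8 per the authors' deposited table. The first was lost with p doubled (FDR 0.0506), after recentring (FDR 0.0825) and at an FDR of 0.01, and the second after recentring (FDR 0.0881). The remaining FOXK2 peak, at 0.57, was not called, so all 3 folds were positive. That uncalled peak shares 685 bases with an opposite-strand peak of an unnamed gene, so its gene is uncertain. FOXK1 had a called peak at chr7:4770902-4771202, centred 390 bases from the annotated 3′ end, with a log2 fold of 1.39 (FDR 0.0209) and an enrichment of 2.71 per the authors' deposited table, a call lost at an FDR of 0.01. Its other peaks had -0.27 and 0.40 at enrichments of 21 and 26.

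FOXD1, a factor of the kidney stroma, had a called peak at chr5:73446535-73447133 (minus strand, 568 bases from the annotated 3′ end), with a log2 fold of 1.25 (FDR 0.00646) and an enrichment of 18.6 per the authors' deposited table. Its other peak, nearer the start of the gene, had -1.04 (FDR 0.0955) at an enrichment of 3.2. The called peak shares 246 bases with a peak of the antisense gene FOXD1-AS1 that had a log2 fold of 0, so the gene is uncertain. The 2 FOXD1 peaks thus had opposite signs, and the negative one was not called.

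Other FOX genes had no called peak. FOXA1 and FOXA3, the endodermal opening factors, had log2 folds of -2.48, and of 1.64 and 1.47, per the authors' deposited table. FOXF1 and FOXL1, neighbours that act in gut mesenchyme, had -3.28 and 1.11, and 4 peaks between -1.29 and 0.59. FOXM1, which drives mitotic genes, had -0.42, -0.61 and -1.88, and FOXN2 had -0.78 at an enrichment of 26.4 and 1.75 at 97.9, the highest of the family. FOXN3, a checkpoint-linked repressor, had 5 peaks between -1.09 and 2.47. The remaining log2 folds were -0.33 and 0.25 for FOXC1, -0.24 for FOXH1, 1.35 for FOXJ2, -0.07 and -0.34 for FOXJ3, -0.13 for FOXO6, 0.51 and -1.32 for FOXP1, and 2.09, -0.99 and 1.44 (FDR 0.158) for FOXP4 per the authors' deposited table. Among these, FOXC1, FOXF1, FOXL1, FOXN2, FOXN3, FOXP1 and FOXP4 each carried folds of both signs.

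GATA factors are zinc-finger proteins of blood, mammary and gut lineages. GATA2 had log2 folds of 1.07 and 1.34 (FDR 0.637 and 0.199), GATA3 of -0.11 at the family's highest enrichment, 17.4, and GATA6, a factor of gut endoderm, of -0.27 per the authors' deposited table. Of these 4 peaks 0 were called, against 8.23% of all peaks, a share too small for so few peaks to differ from. TBX3, a T-box gene of limb and mammary development, had 4 peaks with log2 folds between -1.87 and 1.34, and TBX18, known from the epicardium, had 1 at -1.17. Again 0 were called, beside the same 8.23%. Both families therefore held both signs.

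RFX factors bind X-box sequences, and RFX2 and RFX3 control genes of cilia. RFX3 had the largest fold of any member, a log2 fold of 4.06 (FDR 0.00692) at chr9:3224854-3225273 (minus strand), at an enrichment of 9 and a peak log10 p of only -4.77 per the authors' deposited table. That peak lay 6767 bases from the annotated 3′ end. It was the only RFX peak called, 1 of 9, against 8.23% of all peaks. RFX2 had 0.06 and 0.07, RFX5, which controls MHC class II genes, had 0.49, and RFX7 had 5 peaks between -0.87 and 1.46 per the authors' deposited table. Of the family's 9 folds 7 were positive, but 4 of the 9 lay below the median of all peaks, 0.14. Its highest enrichment, 20.3, was on RFX7.

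**Figure D2:**
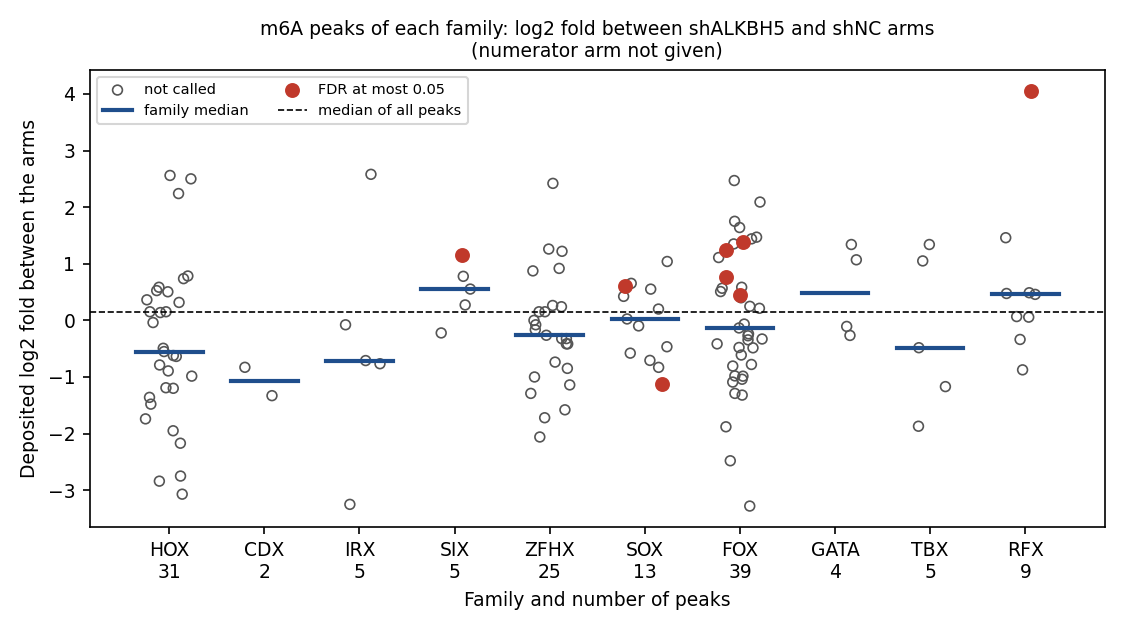
Each point is 1 peak, with the deposited log2 fold between the shALKBH5 and shNC arms on the y axis (numerator arm not given) and the gene family, with its number of peaks, on the x axis; blue lines are family medians and the dashed line is the median of all 22626 peaks, 0.14. Filled red points are the 8 peaks past an FDR of 0.05, 7 above 0 and 1, of SOX9, below.

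Over all families 8 of 138 peaks were called (5.80%), against 8.23% of all 22626 peaks. Positive calls were 7 of 138 (5.07%) against 5.74%, and negative calls 1 of 138 (0.725%) against 2.49%. The called genes were FOXD1, FOXK1, FOXK2, RFX3, SIX4, SOX4 and SOX9. The share called was thus near or below the background and is not a result about these genes. At the unadjusted p of 0.05, 27 peaks (19.6%) were past the threshold against 19.9%, but with 10 positive (7.25%) against 12.9% and 17 negative (12.3%) against 7%. Of all member peaks 74 (53.6%) had a negative fold and 63 a positive one, against 43.5% negative over all peaks, and the member median was -0.10. Under the other rules the called share of members stayed below that of all peaks: 3.62% against 4.99% at an FDR of 0.01, 4.35% against 6.36% with p doubled, 3.62% against 7.78% after subtracting the median fold, 3.62% against 4.38% when a log2 fold at least 1 from the median was required as well, and 8.14% against 13% over peaks with a log10 p of at most -5. It was 6.20% against 8.37% with each locus counted once, by its peak of any gene with the smallest p of the difference. With 1 peak per gene it was 6.45% against 11.4%.

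**Figure D3:**
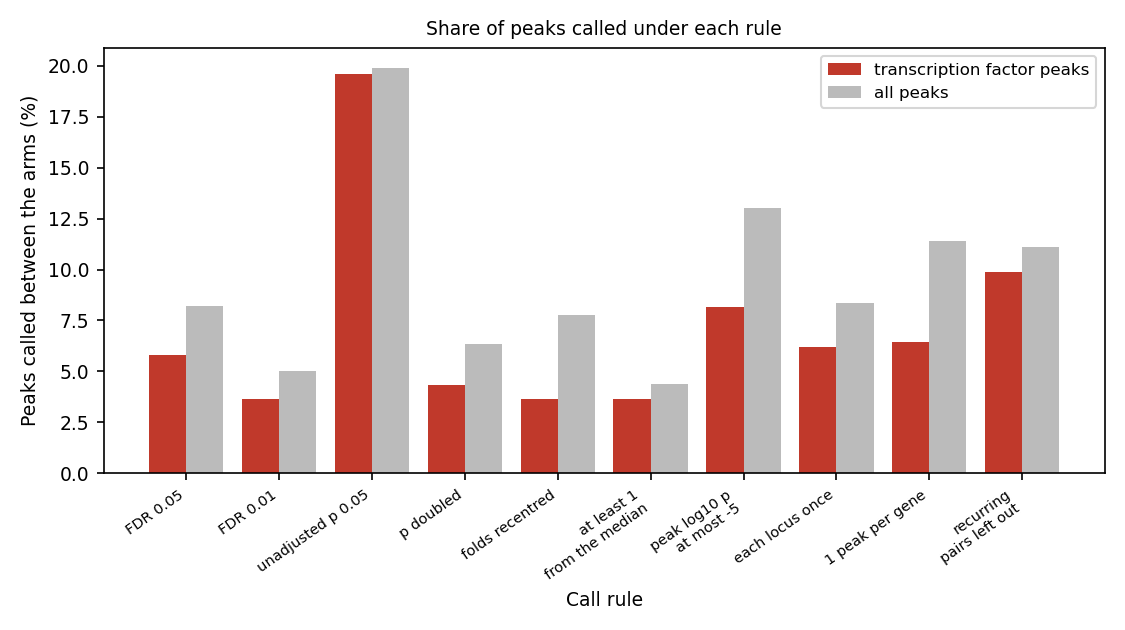
The bars give the percentage of member peaks (red) and of all peaks (grey) called between the arms under each rule on the x axis, where recurring pairs are those held by at least 5 peaks. The red bar is lower than the grey one under all 10 rules shown, from 19.6% against 19.9% at an unadjusted p of 0.05 to 3.62% against 7.78% after recentring.

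Some peaks had exactly the same pair of p and enrichment as other listed peaks. Pairs held by at least 5 peaks of the list were found on 57 member peaks (41.3%), against 26.0% of all peaks, and 0 of the 57 were called, against 11 of 5877 such peaks in all. At that minimum they were 15 of 31 HOX peaks, 19 of 25 ZFHX peaks and 0 of 13 SOX peaks. With pairs held by at least 2 peaks the count was 78 of 138 (56.5%), against 39.4% of all peaks, with 19 HOX, 23 ZFHX and 3 SOX peaks, and it then included the called FOXD1 and SOX9 peaks. Leaving out the peaks whose pair at least 5 peaks held, 9.88% of the other 81 member peaks were called against 11.1% of all others. Member peaks were also weaker than the list as a whole, with a median log10 p of -6.31 against -8.20, while their median enrichment was higher, 13.3 against 10.1 per the authors' deposited table. Their exonic length had a median of 315 bases, against 300, and 15.9% were split over several blocks, against 30.4%.

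**Figure D4:**
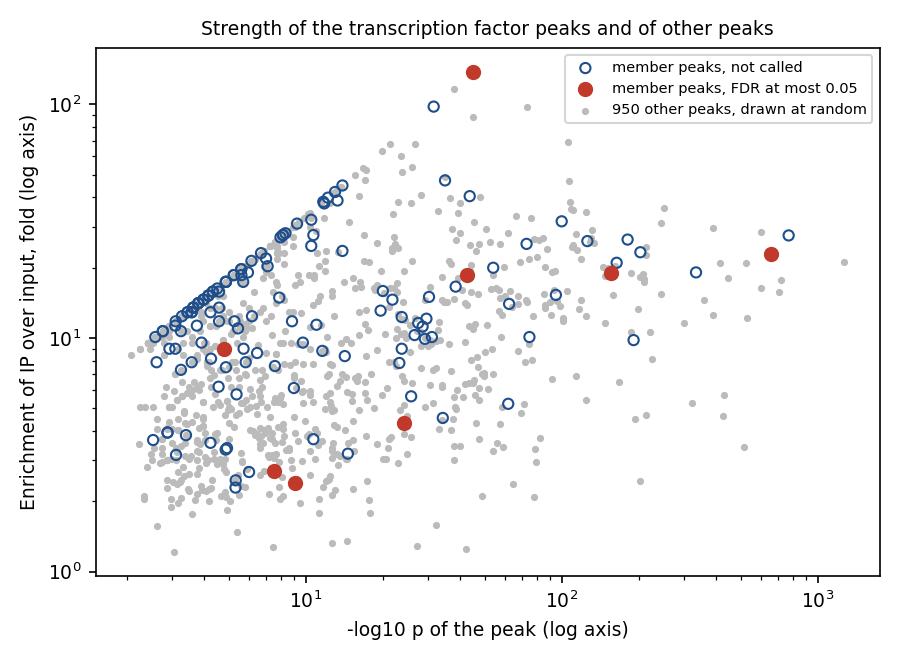
Each point is a peak, with -log10 of its own p on the x axis and its enrichment of IP over input on the y axis (both log axes); blue circles are member peaks that were not called, red points the 8 called, and grey points 950 other peaks drawn at random. Many weak member peaks fall on 1 line at the upper edge, and the called ones reach from an enrichment of 2.39 for SOX9 to 138 for SIX4.

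By position, 21 of 134 placed member peaks (15.7%) were centred within 1000 bases of the annotated 3′ end of the gene, against 21.6% of all placed peaks. Of the 8 called member peaks 2 were (25%), those of FOXD1 and FOXK1, against 32.7% of all called peaks that were placed. SOX peaks were within that distance in 0 of 13 cases, HOX peaks in 8 of 27 and IRX peaks in 3 of 5. The distance counts genome bases, introns included, so it covers more of a short gene. Gene lengths differed widely, with 2233 bases for HOXA4 and 462989 for FOXN3. The 1000 bases were one choice of distance: within 500 bases the share was 5.22% against 11.8%, and within 2000 bases 38.8% against 35.4%. The gene ends used are those of the whole gene and not of the coding region, and exons and untranslated regions were not separated.

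**Figure D5:**
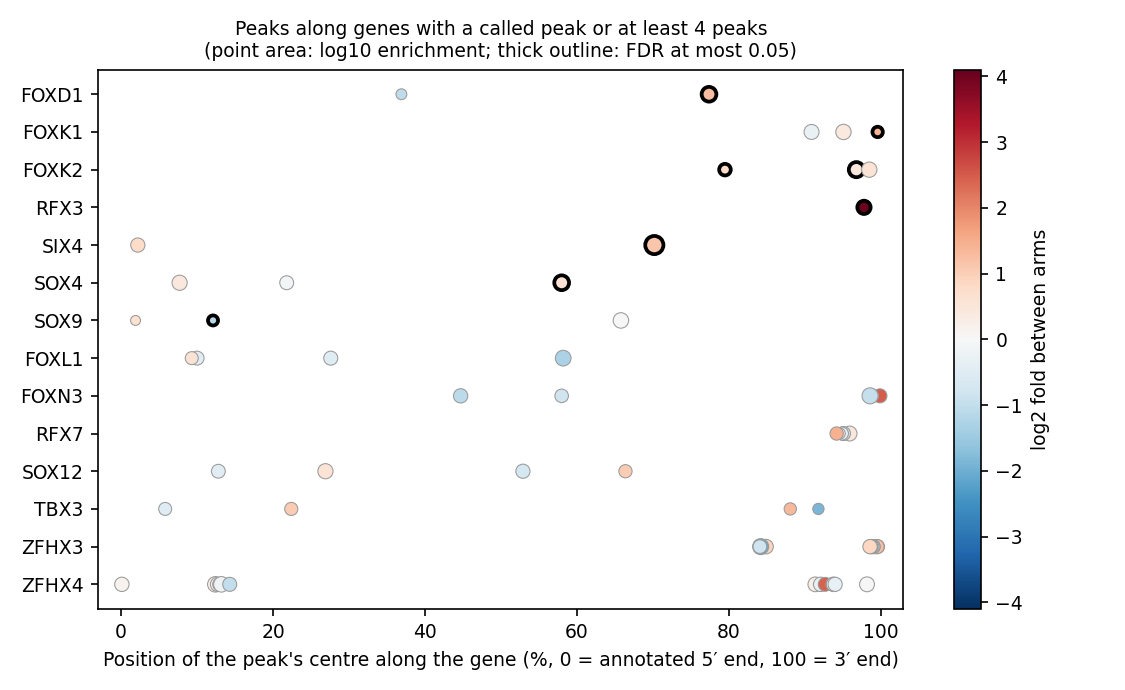
Each row is a gene with a called peak or with at least 4 peaks, and each point a peak placed by its centre along the gene from the annotated 5′ end (0) to the 3′ end (100 on the x axis, in percent); colour is the deposited log2 fold between the arms, point area the enrichment on a log10 scale, and a thick outline marks an FDR of at most 0.05. ZFHX3 and ZFHX4 carry 11 and 13 peaks with no call, and the SOX9 call is the blue point near its start.

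Many genes carried peaks of both signs. Of 36 member genes with several peaks, 23 (63.9%) had both a positive and a negative fold, against 59.6% of 5812 genes in the whole list. The median span of log2 fold within a gene was 1.77 in the members and 1.33 over all. Of the member peaks 21 shared at least 1 base with another listed peak, 9 with a gene on the opposite strand, and for HOXA4, HOXA7, HOXA10 and HOXB3 the partner was an antisense RNA of the HOX cluster. Such pairs cannot be assigned to 1 gene from this table.

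Other genes of the same pathways were taken from lists made with these data already analysed, so their counts are a description. Of 11 genes listed as HOX cofactors (PBX, MEIS, PKNOX and TGIF genes) 8 had peaks, 11 in all, and 2 were called. Both calls were on TGIF genes, and no peak of the PBX, MEIS or PKNOX genes was called, against 8.23% of all peaks. TGIF1, a TALE homeodomain repressor, had a log2 fold of 1.13 (FDR 7.94e-19) at 1 of its 2 peaks. Its relative TGIF2 had -1.66 (FDR 0.0195) at 1 of its 2 per the authors' deposited table. Of 28 Polycomb and trithorax genes, which silence or maintain HOX loci, 26 had peaks and 1 of 63 peaks was called. It was 1 of the 3 peaks of PHC3, at -2.03 (FDR 0.0135). Partners of the GATA, RFX and FOX factors and of the SIX3 and SIX4 family had 13 peaks on 7 of 13 genes, with 1 called. It was 1 of the 3 peaks of ZFPM1, a GATA cofactor, at -2.37 (FDR 1.17e-10) per the authors' deposited table.

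Other intestinal transcription factors had 24 peaks on 9 of 14 genes, of which 4 were called. KLF5, a crypt progenitor factor, had 0.50 (FDR 5.25e-06) at its 1 peak. TCF7L2, the Wnt effector, had 1.14 (FDR 0.00513) at 1 of its 6 peaks, with an enrichment of 1.87. KLF4 had 1.63 (FDR 0.0288) and GRHL2 -4.02 (FDR 0.0224), each at 1 of 4 peaks, per the authors' deposited table. The other peaks of these genes were not called. Other homeobox and paired genes had 62 peaks on 25 of 32 genes, with LHX2 among those called, at 3.57 (FDR 0.0309) per the authors' deposited table. With p doubled KLF4 and LHX2 were no longer called, and neither was KLF4 after recentring (FDR 0.0518). Among 16 non-coding genes of the HOX clusters 5 had peaks, 9 in all, and 0 were called, against 8.23% of all peaks. Their median log2 fold was -0.49 per the authors' deposited table. The median log2 folds of the other lists were 0.05 for HOX cofactors, 0.34 for Polycomb and trithorax genes, -0.11 for the partner genes, -0.07 for intestinal factors and -0.05 for other homeobox genes, beside 0.14 over all peaks. Their called shares, in the same order, were 18.2%, 1.59%, 7.69%, 16.7% and 3.23%, beside 8.23% over all peaks.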

How the data were processed

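m6A peaks of HCT116 cells were taken from 1 deposited list covering 8 libraries in 4 groups of 2. Nothing in the labels says that replicates came from separate cultures, and the labels name more than 1 antibody, fragment size and platform. Tools listed in the submitters' processing notes are BWA 0.7.12 and HOMER 4.9.1, and the build is GRCh38. Which step each served, and which program called the peaks, is not stated there. Per the file headers, the deposited log10 p-values of peak and difference are held as score columns, the authors' fold enrichment as a linear ratio and the arms' difference as a log2 value.

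Members were matched by symbol with Python 3.11.15, pandas 2.3.3 and SciPy 1.17.1. Members, gene lists and the rule for named genes were chosen with earlier results of these data known. That rule names every called peak, the 5 uncalled peaks with the smallest p, genes with at least 4 peaks each family's highest enrichment and up to 4 called genes of each list. Other members are named to account for them, and some genes are not reported here. The deposited FDR is the authors' and was kept. No deposited p exceeded 0.773, and 1011 peaks whose log2 fold was at most 0.05 in size had a median p of 0.565. For that reason p doubled and adjusted again was tried, and so were the rules given in the report. Recentring subtracted the median fold of all peaks and adjusted the p again. The standard errors it needs were derived: for the 11573 peaks with a p under 0.3 they are the fold over the normal quantile of p, assuming a one-sided test. For the other peaks they were predicted from peak p, enrichment and length. Recentred FDRs are therefore approximate. Gene positions are those of the RefSeq annotation on GRCh38.p14. Peak coordinates are 1-based. No value per library was used, so no test across libraries was run. Peak sequences were not analysed here.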

Additional observations from a re-analysis of the deposited data

How the results depend on the processing

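The 8 calls became 5 at an FDR of 0.01, 27 at an unadjusted p of 0.05, 5 after recentring, 5 with a log2 fold at least 1 from the median, and 4 with 1 peak per gene. The positive share of called member peaks, 87.5%, was 37.0% at the unadjusted p and 100% with 1 peak per gene, where 4 of 4 were positive. Median enrichment, 13.3, was 17.4 with 1 peak per gene and 16.2 over peaks with a log10 p of at most -5. The share near the 3′ end, 15.7%, was 5.22% within 500 bases and 38.8% within 2000. The HOX negative share, 83.3%, was 58.1% over all HOX peaks and 23.1% over the weaker ones. Leaving out recurring pairs and the HOX splits were chosen after the data were seen. The cause was not tested beyond what fewer peaks or another threshold give by construction.

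No paired analysis was possible because the table holds no value per library, and leaving out each replicate was not run for the same reason. The planned motif counts in peaks were not run, since no genome was used. Depth is unknown, so a missing peak does not show an absent mark.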

Other observations

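Recurring pairs of peak p and enrichment lay on a ladder. The 20 commonest pairs ran from an enrichment of 9.56 with a log10 p of -2.41 to 20.3 with -5.77, in steps of 0.5 to 0.6, and each was held by 73 to 237 peaks. Members on it included HOXA5 and TBX18, both at 10.7 and -2.76, and GATA3, IRX3 and FOXP1, each with a peak at 17.4 and -4.87 in the authors' deposited table.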
